A study of Mus musculus with 73 samples.

Results

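Of 8 genes of trophoblast differentiation that were looked up by name (Hand1, Gcm1, Tpbpa, Prl3d1, Syna, Synb, Ovol2 and Flt1), 6 had a row among the 30546 genes of the deposited table, and 1, the receptor gene Flt1, held enough reads to be compared between groups. Hand1 and Synb had no row and were not analysed here. Flt1 was 2.88-fold higher on average in the extraembryonic ectoderm (ExE) of Eed knockout embryos than in wild-type ExE. In the same comparison 13 of 18 tested genes from 3 lists of ectoplacental, giant cell and syncytiotrophoblast genes rose and 1 fell, where 22.7% of all genes tested were higher and 18.1% lower. Some listed genes that were low in wild type were tested only because the Eed libraries held enough reads, so the count leans towards rises. Syncytin-A (Syna) held 10 or more reads in 3 of the 10 Eed knockout ExE libraries and in no other library of the series.

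The ExE is the trophoblast tissue of the egg cylinder. Its stem cells give rise to the ectoplacental cone and later to the spongiotrophoblast, to trophoblast giant cells, which invade the decidua and secrete placental lactogens, and to the syncytiotrophoblast of the labyrinth, whose layers form by cell fusion. Hand1 is a basic helix-loop-helix factor needed for giant cells. Gcm1 drives labyrinth branching and syncytiotrophoblast formation, and Syna and Synb encode the envelope-derived proteins that fuse its cells. Tpbpa marks the spongiotrophoblast lineage, Prl3d1 is the placental lactogen of parietal giant cells, and Ovol2 is a zinc finger factor needed in the labyrinth and the embryo. Flt1 encodes a receptor for Vegfa and Pgf and is made by endothelium and by spongiotrophoblast.

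Epiblast and ExE were dissected from individual E6.5 mouse embryos and their RNA sequenced, as 72 libraries in 12 groups. All embryos were F1 hybrids of BDF1 and CAST mice. The wild-type BDF1xCAST group (BDF1 mother) had 7 epiblast and 7 ExE libraries, and it shares its cross and its production with the knockouts: zygotes made by sperm injection, grown to blastocysts and transferred to CD-1 females. The reciprocal CASTxBDF1 wild type (CAST mother) had 4 libraries of each tissue and came from natural mating, so cross direction and mode of fertilisation cannot be told apart. Knockout embryos came from zygotes injected with Cas9 mRNA and several guides per gene, so each embryo is a separate editing event and not a line: Dnmt1, which maintains DNA methylation (3 epiblast, 3 ExE), G9a-Glp, the Ehmt2 and Ehmt1 histone methyltransferases disrupted together (6 and 8), Rnf2, of Polycomb complex PRC1 (6 and 5), and Eed, of PRC2 (9 and 10). Each library is 1 tissue of 1 embryo. The design targeted the effect of these regulators on the 2 lineages.

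Counts were of reads over positions that differ between BDF1 and CAST, and library totals ranged from 1141414 to 17653087 reads, with Rnf2 libraries the deepest (1847681 to 17653087). Levels are given as CPM, the count scaled to the library total. The ExE and stem cell marker sum was 589.4 to 1208 CPM in wild-type BDF1xCAST ExE and 32.69 to 243.2 in epiblast. The targeted gene did not bear out the label in 6 knockout libraries (in ExE, Dnmt1 embryo 1 and Rnf2 embryos 2, 5 and 6, and in epiblast, embryos 2 and 7 of G9a-Glp), so these are libraries labelled as knockouts. By this measure at least 2 wild-type BDF1xCAST libraries of the tissue were at or below the library's CPM of the targeted gene (of both genes for G9a-Glp). It reads the RNA level and not the edit, so such a library may still be a knockout. Wild-type BDF1xCAST epiblast embryo 8 stood apart in its group, with a visceral endoderm marker sum of 449.7 CPM against a group median of 8.256. Other epiblast groups had high values too. The highest was 2411 CPM in wild-type CASTxBDF1 (median 25.34) and 304.8 CPM in G9a-Glp (median 74.67).

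The 250 bases before the start of 3 members are shown for their contrast in CpG content, since one of the disrupted regulators keeps CpG methylation. They were taken from RefSeq (GRCm38.p6), where 6 of the 8 members had an entry, and run 5′ to 3′ on the strand of the gene with each CG in capitals. CG was searched on the printed strand, and it reads the same on the other.
Flt1: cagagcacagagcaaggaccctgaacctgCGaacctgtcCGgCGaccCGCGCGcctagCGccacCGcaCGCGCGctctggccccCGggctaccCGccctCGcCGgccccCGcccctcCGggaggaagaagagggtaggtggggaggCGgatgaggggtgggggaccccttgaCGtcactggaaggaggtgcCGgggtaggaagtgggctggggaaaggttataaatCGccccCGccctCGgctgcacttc
Tpbpa: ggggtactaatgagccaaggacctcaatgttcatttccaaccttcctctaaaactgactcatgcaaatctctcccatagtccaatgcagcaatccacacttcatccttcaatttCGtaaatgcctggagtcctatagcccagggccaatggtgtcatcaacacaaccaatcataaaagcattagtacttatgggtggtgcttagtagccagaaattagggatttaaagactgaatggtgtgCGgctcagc
Prl3d1: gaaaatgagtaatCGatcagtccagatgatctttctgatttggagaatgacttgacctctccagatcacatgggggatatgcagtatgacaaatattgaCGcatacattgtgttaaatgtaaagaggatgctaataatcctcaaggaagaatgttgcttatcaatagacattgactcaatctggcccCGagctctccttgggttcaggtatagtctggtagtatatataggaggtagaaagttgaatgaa
The Flt1 sequence (chr5:147726012-147726261, minus strand) held 23 CG, and 13.3% of the 32851 promoters in the table held at least as many in the same length. The Tpbpa sequence (chr13:60941937-60942186, minus strand) held 2 and the Prl3d1 sequence (chr13:27093939-27094188, plus strand) held 3, counts reached by 81.2% and 71.0% of promoters. Ovol2 held 20, Syna 4 and Gcm1 1, against a median of 6 over all promoters. These counts describe the sequence and carry no measurement of methylation.

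A member was taken to have too few reads in a group when fewer than 3 of the group's libraries held 10 reads. By that measure Ovol2, Gcm1, Tpbpa and Prl3d1 had too few reads in all 12 groups, and Syna in all but Eed knockout ExE. Flt1 had enough in 8 groups and too few in both CASTxBDF1 groups and both Dnmt1 groups. Ovol2 (chromosome 2, 144305175 to 144332080, mm10) had 0 reads in all 72 libraries, which allows a level of up to 0.01185 CPM over all of them. Gcm1 (chromosome 9, 78051958 to 78065624) had 22 reads in 11 libraries, with at most 4 in any one. Tpbpa (chromosome 13, 60938692 to 60941935) had 21 reads in 10 libraries, again with at most 4. Prl3d1 (chromosome 13, 27094189 to 27100260) had 13 reads in 2 libraries, Syna (chromosome 5, 134557254 to 134577076) had 105 in 16, and Flt1 (chromosome 5, 147562196 to 147726005) had 1594, with at least 1 in every library. Because a read was counted only where it crossed a polymorphism, a member with few such positions in its transcript gives few reads at any level of expression, and the number of these positions per gene was not given in the sources used here. A low count therefore says that the member was not detectable in these counts, not that it was absent.

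**Figure D1:**
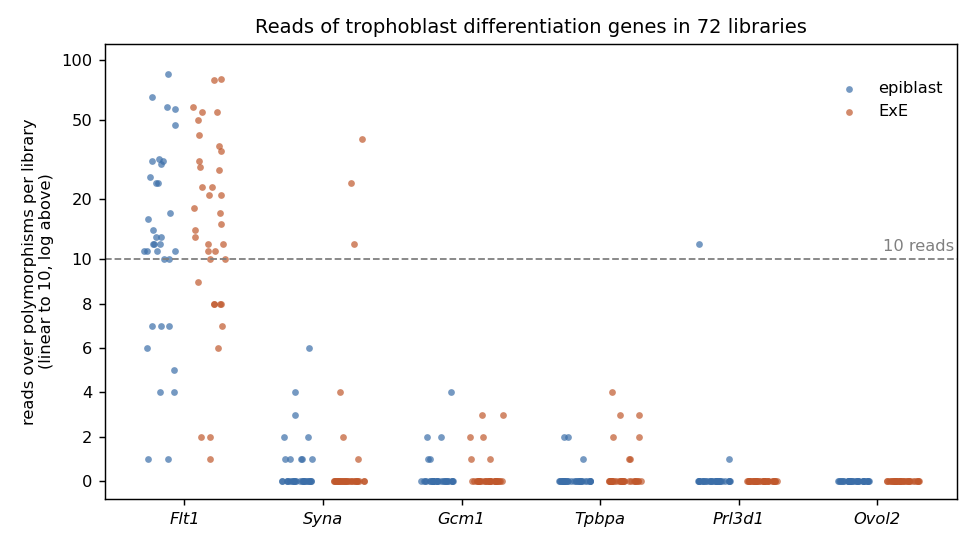
Reads of each member with a row (x axis) in each of the 72 libraries (points, epiblast blue and ExE orange); the y axis gives reads, linear to 10 and log above, and the dashed line marks 10 reads. Flt1 reaches the line in 53 libraries, Syna in 3, Prl3d1 in 1, and Gcm1, Tpbpa and Ovol2 in none.

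The spongiotrophoblast marker Tpbpa was read in 3 of 8 G9a-Glp ExE libraries (embryos 2, 7 and 8, with 4, 3 and 2 reads, or 2.186, 1.119 and 0.9265 CPM). It was read in 1 Rnf2 ExE library (3 reads) and in 3 Eed ExE libraries (4 reads in all). In epiblast it was read in 1 library each of wild-type BDF1xCAST (embryo 8, 2 reads, 1.525 CPM), wild-type CASTxBDF1 (embryo 4, 2 reads, 0.7239 CPM) and Eed (1 read), so reads at these levels were not confined to knockouts. No read fell in the 7 wild-type BDF1xCAST ExE libraries, which allows up to 0.148 CPM over that group. All 9 reads in G9a-Glp ExE carried the BDF1 allele (100%, 95% Wilson interval 70.09 to 100). These intervals and limits cover counting error only, since reads without molecular identifiers are not independent molecules. With every gene of at least 1 read tested, the edgeR quasi-likelihood log2 difference of Tpbpa between G9a-Glp and wild-type ExE was 3.52 with a Benjamini-Hochberg adjusted p of 0.06377. Gcm1 reads were spread over 6 groups, at most 7 in any group, and 0 were found in the 10 Eed knockout ExE libraries (up to 0.1016 CPM).

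Prl3d1, the placental lactogen, was a signal of 1 library. Eed knockout epiblast embryo 5 held 12 of its 13 reads (5.054 CPM), and the other read was in CASTxBDF1 epiblast embryo 1. All 12 reads carried the BDF1 allele (75.75 to 100% by the Wilson interval). The prolactin cluster holds near-identical copies of this gene, so reads may be split between them: Prl3d2 had 1 read (Eed epiblast embryo 9) and Prl3d3 had 2 (Eed epiblast embryo 3). These copies and the next 2 genes were chosen after their values were seen, apart from Prl6a1, which is on the giant cell list. The same Eed epiblast library held 7 of the 24 reads of Prl6a1 and 4 of the 5 reads of Prl8a2, a prolactin-family hormone of the decidua, and all of these were BDF1 reads. Prl6a1 was also read in Eed ExE embryos 5, 8 and 10 (5, 4 and 4 reads). Rnf2 epiblast embryos 3 and 5 held 1 read of it each, and G9a-Glp ExE embryo 7 held 2. It was read in none of the wild-type libraries. The decidual marker sum was 14.07 to 37.07 CPM in Eed epiblast and 6.724 to 26.86 CPM in wild-type BDF1xCAST epiblast, where Prl8a2 was at 0, and the part of maternal tissue in these reads was not tested. Over the groups, Prl3d1 was 0.5616 ± 1.685 CPM in Eed epiblast (SD, n = 9) against 0 in 7 wild-type libraries. A permutation test could not inform here. With reads in 1 library alone, its p is set by the group sizes, whatever the level.

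Syna was read in 4 of 10 Eed knockout ExE libraries. Embryos 3, 4 and 5 held 24, 40 and 12 reads (8.835, 12.89 and 3.933 CPM), embryo 1 held 1 read, and the other 6 held 0. In wild-type BDF1xCAST ExE, 1 of 7 libraries held 4 reads (1.317 CPM). Elsewhere the most in a library was 6, in the wild-type epiblast embryo 8 that stood apart. The groups overlap at 0, and their means were 2.602 ± 4.619 CPM (SD, n = 10) and 0.1881 ± 0.4976 CPM (SD, n = 7), with an exact two-sided permutation p of 0.2715 (0.543 after Benjamini-Hochberg adjustment over the 2 members tested this way). The other of these was Prl3d1 in epiblast, whose p was fixed by the group sizes. Syna did not pass the abundance filter of the gene-wide fit. Without the filter, its edgeR log2 difference was 3.24 (SE 1.15) with an adjusted p of 0.03571, so the 2 tests fall on different sides of 0.05. The BDF1 share of its 77 reads in Eed ExE was 20.78% (Wilson 13.22 to 31.12), and it was 18.06 ± 6.365% over the 3 libraries with 10 reads (SD).

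Flt1 was low and variable in wild-type tissue and did not separate ExE from epiblast. In wild-type BDF1xCAST ExE its level was 3.93, 6.453, 0.687, 4.468, 4.668, 2.633 and 5.36 CPM in embryos 1, 2, 3, 4, 6, 7 and 8 (median 4.468). In wild-type epiblast the lowest, median and highest levels were 0.4193, 3.993 and 12.96 CPM, and the ranges overlap. The log2 difference of ExE over epiblast was 0.01 (SE 0.49, adjusted p = 0.9889 by edgeR's quasi-likelihood test), so 0 of 1 tested member passed, also by DESeq2 and at an unadjusted p of 0.05. Of all genes tested, 56.7% were called in that comparison. Between the reciprocal crosses the log2 difference (CASTxBDF1 over BDF1xCAST) was -0.37 in epiblast (adjusted p = 0.9241 by edgeR) and -0.42 in ExE (adjusted p = 0.8393). In these comparisons, which called 0.0103% and 1.06% of all genes, 0 members passed by either tool or at an unadjusted p of 0.05.

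In Eed knockout ExE, Flt1 was 28.78, 25.98, 7.731, 7.41, 9.505, 3.126, 5.291, 2.515, 19.66 and 5.973 CPM in embryos 1 to 10. Embryos 1, 2 and 9 were far above the others, 6 of the 10 exceeded every wild-type ExE library, and 4 lay within the wild-type range. The group mean was 11.6 ± 9.6 CPM (SD, n = 10) against 4.028 ± 1.887 in wild type (SD, n = 7). The log2 difference was 1.29 (SE 0.47), and edgeR's adjusted p was 0.03275, so 1 of 1 tested member passed where 40.8% of all genes did (22.7% higher, 18.1% lower). The call was lost without wild-type embryo 1, 3 or 7 (adjusted p 0.05328, 0.06494 and 0.06352 by edgeR) and without Eed embryo 1, 2 or 9 (0.0706, 0.06517 and 0.05422). With embryo sex as a term the adjusted p was 0.05055.

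In G9a-Glp knockout ExE, Flt1 was 2.956, 6.012, 10.82, 17.32, 13.8, 14.36, 3.942 and 9.622 CPM in embryos 1, 2, 3, 4, 7, 8, 9 and 10. Of these 8 libraries, 5 were above every wild-type library and 3 lay within the wild-type range. The mean was 9.853 ± 5.208 CPM (SD, n = 8), the log2 difference was 1.20 (SE 0.41), and edgeR's adjusted p was 0.0509, so 0 of 1 member passed where 15.2% of all genes did (8.5% higher, 6.66% lower). At an unadjusted p of 0.05 it passed (0.007771), and DESeq2 called it (adjusted p 0.02096). It also passed in edgeR without wild-type embryo 2 or 8 (adjusted p 0.04402 and 0.04939) or without G9a-Glp embryo 1, 2 or 9 (0.02711, 0.04363 and 0.02555).

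The other knockouts did not pass. In Rnf2 ExE (embryos 2, 4, 5, 6 and 7) Flt1 was 8.151, 0.682, 5.953, 6.711 and 8.288 CPM, which overlaps wild type, with a log2 difference of 0.50 (SE 0.50, adjusted p = 0.5011 by edgeR, against 22.2% of all genes called, 12.2% higher and 9.99% lower). In Dnmt1 ExE it was 0.5096, 3.508 and 3.872 CPM from 1, 6 and 9 reads, with a log2 difference of -0.86 (SE 0.64, adjusted p = 0.388 by edgeR, against 18.5% of genes called, 8.54% higher and 9.96% lower). In epiblast the 3 Dnmt1 libraries were at 14.07, 10.51 and 4.697 CPM, with a log2 difference of 1.01 (SE 0.67, adjusted p = 0.352 by edgeR, against 14.1% of genes called). G9a-Glp epiblast ran from 2.447 to 14.66 CPM with a median of 9.189, Rnf2 epiblast from 3.931 to 10.27 with a median of 6.292, and Eed epiblast from 1.685 to 12.37 with a median of 4.926. Their log2 differences were 0.99 (SE 0.53), 0.65 (SE 0.49) and 0.19 (SE 0.48). The edgeR adjusted p values were 0.1568, 0.3288 and 0.7805, in comparisons that called 34.6%, 31% and 35.7% of all genes. In all of these 0 members passed by edgeR, by DESeq2 or at an unadjusted p of 0.05. The G9a-Glp epiblast difference did pass without wild-type epiblast embryo 8, the library that stood apart (adjusted p 0.02541 by edgeR). All knockouts of a tissue share the same wild-type libraries.

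**Figure D2:**
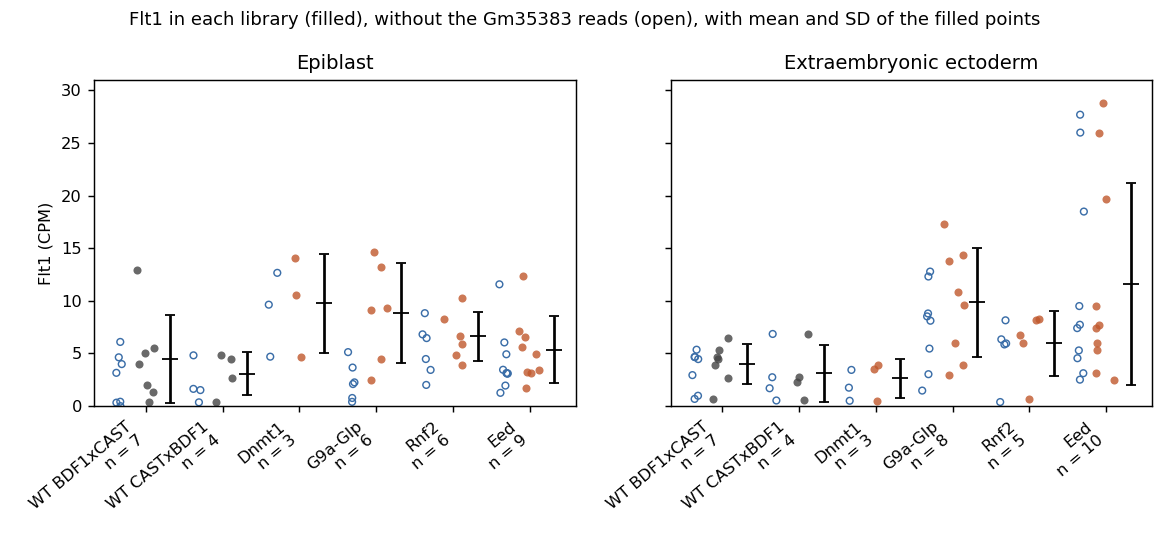
Flt1 (y axis, CPM) in each epiblast and ExE library by group (x axis): filled points are libraries, open points the same libraries without the reads of the overlapping gene Gm35383, and bars are the mean and SD of the filled points. Eed ExE reaches 28.78 CPM, and removing the Gm35383 reads lowers G9a-Glp epiblast most.

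By group mean, the order of Flt1 from the highest was Eed ExE, G9a-Glp ExE, Dnmt1 epiblast, G9a-Glp epiblast, Rnf2 epiblast, Rnf2 ExE, Eed epiblast, the BDF1xCAST wild-type epiblast and ExE, the CASTxBDF1 ExE and epiblast, and Dnmt1 ExE (2.63 ± 1.845 CPM, SD, n = 3). Each step between neighbours in this order was smaller than the SD of either group. Tested directly, the Eed effect in ExE minus that in epiblast was 1.13 on the log2 scale (SE 0.70, edgeR adjusted p = 0.2835), so a difference between the tissues was not shown. The same interaction was -1.84 for Dnmt1, 0.25 for G9a-Glp and -0.17 for Rnf2, with edgeR adjusted p values of 0.5955, 0.868 and 0.9377. These 4 interactions called 15.9% (Eed), 0.247%, 6.83% and 6.82% of all genes, and 0 of the 4 Flt1 values passed by edgeR, by DESeq2 or at an unadjusted p of 0.05. Between knockouts in ExE, Eed minus Rnf2 was 0.81 on the log2 scale (adjusted p = 0.3334 by edgeR, 14.5% of genes called) and Eed minus G9a-Glp was 0.13 (adjusted p = 0.8452, 31% called), and again 0 passed by either tool or unadjusted.

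Part of the Flt1 count is shared with another gene. The long noncoding gene Gm35383 (chromosome 5, 147658787 to 147668887, mm10, named here after its values were seen) lies inside Flt1's span, and its count never exceeded that of Flt1 in any of the 72 libraries, for all reads and for CAST reads. Its 310 reads equal 19.45% of Flt1's 1594. The share differed between groups: it was 73.17% in G9a-Glp epiblast (90 of 123 reads), 37.5% in wild-type BDF1xCAST epiblast, 16.05% in wild-type ExE, 22.44% in G9a-Glp ExE and 3.514% in Eed ExE (11 of 313). Without these reads Flt1 in G9a-Glp epiblast was 2.389 ± 1.776 CPM (SD, n = 6) against 2.663 ± 2.425 in wild type (SD, n = 7), so the higher raw level there lay in the shared reads. In Eed ExE it was 11.23 ± 9.382 CPM (SD, n = 10) against 3.397 ± 1.896 in wild type (SD, n = 7), with a log2 difference of 1.49 and an edgeR adjusted p of 0.02081. The G9a-Glp ExE difference without them was 1.07 on the log2 scale (adjusted p = 0.1098 by edgeR). Strand was not recorded as used in the counting, so the source of the shared reads cannot be told apart.

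Fewer Flt1 reads carried the BDF1 than the CAST allele in wild-type BDF1xCAST ExE. The BDF1 share was 25.93% (Wilson 17.63 to 36.4, 81 reads), below the mean of 56.37 to 57.74% over autosomal reads of each group, and 19.4 to 28.77% without any one of the 7 libraries. The 5 libraries with 10 reads ran from 16.67 to 57.14% (30.43 ± 18.22, SD). In CASTxBDF1 ExE the pooled share of 27.91% (16.75 to 42.69, 43 reads) rests on embryo 1, with 1 BDF1 read of 23. Without it, 11 of 20 reads were BDF1 (55%, 34.21 to 74.18), so a low share in this cross was a value of 1 library. Its 2 libraries with 10 reads were at 4.348 and 60.0%. In wild-type epiblast the shares were 43.75% (32.29 to 55.91) and 56.25% (39.33 to 71.83). Without the Gm35383 reads the ExE shares were 30.88% (21.17 to 42.64) and 24.39% (13.83 to 39.34), the latter 50.0% (29.03 to 70.97) without CASTxBDF1 embryo 1. Flt1 had too few reads for the parental test at 10 reads per library. At 5 reads the log2 ratio of maternal to paternal reads was -0.42 in epiblast (SE 0.58) and -0.36 in ExE (SE 0.56), with edgeR adjusted p values of 1 and 0.9723, while 0.319% and 0.844% of all genes passed at 10 reads.

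In knockout ExE the BDF1 share was 46.65% in Eed (41.19 to 52.18, 313 reads), 43.6% in Rnf2 (37.08 to 50.35) and 38.05% in G9a-Glp (31.68 to 44.86). Single Eed libraries with 10 reads ran from 4.762 to 76.47% (47.46 ± 24.52, SD, n = 9). The change of the log2 allelic ratio against wild type was 1.32 in Eed, 1.25 in Rnf2 and 0.91 in G9a-Glp, with edgeR adjusted p values of 0.452, 0.5765 and 0.7158. Dnmt1 ExE had too few reads for this test. These comparisons called 2.65%, 0.911% and 1.1% of genes (0.856% for Dnmt1), and 0 of the 3 Flt1 values passed by edgeR, or at an unadjusted p of 0.05.

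The 2 listed ligands of Flt1, Pgf and Vegfa, rose in Eed knockout ExE against wild-type BDF1xCAST ExE. Pgf, placental growth factor, was 26.3 ± 20.94 CPM (SD, n = 10) against 5.415 ± 2.128 (SD, n = 7), a log2 difference of 2.08 (SE 0.48, adjusted p = 0.001547 by edgeR). Its highest levels were not in the embryos with the highest Flt1. In Eed embryos 1, 2 and 9 Pgf was 10.2, 8.503 and 7.469 CPM, and in embryos 3, 4 and 5 it was 57.43, 49.94 and 54.08 CPM. Vegfa rose from 2.687 ± 1.007 to 7.372 ± 2.622 CPM, and Mdfi, an inhibitor of basic helix-loop-helix factors, rose by 2.04 on the log2 scale (adjusted p 0.002429 by edgeR). In the 4 CASTxBDF1 wild-type ExE libraries Vegfa was 7.451, 1.075, 4.815 and 8.508 CPM. Pgf was 11.03, 2.687, 3.115 and 9.331 CPM there, so the Eed levels of both ligands overlap this wild type. Kdr, the other main receptor of Vegfa, fell by 1.43 on the log2 scale (SE 0.49, adjusted p = 0.02507 by edgeR, and 0.08275 without wild-type embryo 8). Of the 8 genes listed as partners of Flt1 and Hand1, 5 were tested, 4 rose (the fourth being the E protein Tcf12) and 1 fell, beside 22.7% higher and 18.1% lower of all genes. The ExE comparisons of the other knockouts tested 4, and Mdfi, low in wild type, entered the Eed test through the Eed libraries. Kdr also fell in Rnf2 ExE (-2.59, adjusted p = 0.002263 by edgeR) and in G9a-Glp ExE (-2.08, adjusted p = 0.01301), the only called partner in each. The endothelium and blood marker sum, to which Kdr belongs, was 25.01 to 107.4 CPM in wild-type ExE (median 75.36) and 11.52 to 62.52 in Eed ExE (median 36.27). It was not lower by the median in Rnf2 ExE (40.05 to 145.9, median 86.16) or G9a-Glp ExE (18.97 to 248.3, median 95.72). In wild type, Eed and Rnf2 5 of 5 genes were read, and in G9a-Glp 4, with Tal1 at 0. Kdr itself was 4.302 to 14.29 CPM in wild-type BDF1xCAST ExE, so at the median of 75.36 other genes made most of the sum. The part of this sum in the changes was not tested. In these bulk samples fewer cells of a type and less RNA per cell cannot be told apart.

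The ectoplacental and spongiotrophoblast genes rose most in Eed knockout ExE. Of 9 listed, 7 were tested, 6 rose (22.7% of all genes did) and the median log2 difference was 2.87, against 0.02 over all genes tested. The homeobox gene Rhox9 went from 17.84 ± 5.578 to 678.6 ± 518.7 CPM (log2 difference 5.06, SE 0.50, adjusted p = 1.727e-07 by edgeR). The kinase gene Nrk went from 5.247 ± 4.95 to 165.5 ± 167.9 CPM (4.77, adjusted p = 2.172e-05), and Rhox6 from 114.7 ± 23.5 to 2400.0 ± 1612 CPM (4.21, adjusted p = 1.277e-07). Of the 7, 4 had Eed libraries that were all above all wild-type libraries, as had 6.58% of all genes. Cdkn1c, a cell cycle inhibitor, and Plac1 and Ascl2 also rose, and Phlda2 did not pass the test. Plac1's count equals that of an overlapping gene, Gm35988, in 69 of 72 libraries, so the 2 cannot be separated. Tpbpb and Pcdh12 had too few reads. Of the tested genes, Rhox6, Rhox9, Nrk and Plac1 are X-linked, and Ascl2, Cdkn1c and Phlda2 lie on chromosome 7. Whether their rise reflects the lineage or their location was not tested.

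Of 8 tested syncytiotrophoblast genes 6 rose and 1 fell in Eed ExE, beside 22.7% and 18.1% of all genes, and their median log2 difference was 1.19. Pparg, a nuclear receptor needed for the labyrinth, went from 2.248 ± 2.567 to 70.78 ± 65.07 CPM (log2 difference 4.75, SE 0.80, adjusted p = 8.44e-05 by edgeR). Cebpb went from 1.059 ± 1.139 to 11.71 ± 6.24 CPM (3.25, adjusted p = 6.158e-05) and the homeobox gene Dlx3 from 4.834 ± 3.951 to 41.02 ± 21.31 CPM (2.90, adjusted p = 2.943e-05). The monocarboxylate transporter gene Slc16a1 fell by 0.43 on the log2 scale (adjusted p = 0.006654 by edgeR). Cebpb was also 3.875 to 7.256 CPM in the 4 CASTxBDF1 ExE libraries, above all 7 BDF1xCAST libraries, as were 1.9% of all genes, although its cross difference was not called. Bhlhe40 was the called gene of the lists between the crosses, 1.89 higher on the log2 scale in CASTxBDF1 ExE (edgeR adjusted p 0.03813, and lost without any of 9 single libraries, up to 0.1966 without CASTxBDF1 embryo 1). Its count (1419 reads over all libraries) may include reads of the overlapping 0610040F04Rik (451 reads). Of 3 giant cell genes tested 1 passed: Gata2 rose from 0.8183 ± 1.145 to 7.274 ± 4.454 CPM (log2 difference 2.92, adjusted p = 0.000427 by edgeR), and its count may include reads of the overlapping Gm38708. Bhlhe40 and Mmp9 did not pass, and Prl3b1, Prl4a1, Prl6a1 and Ctsq had too few reads. The ExE comparisons of the other knockouts tested 2 giant cell genes and 6 or 7 syncytiotrophoblast genes. Gata2 and Pparg, low in wild type, entered the Eed test through the Eed libraries, where they were high. The counts of both lists therefore lean towards rises.

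**Figure D3:**
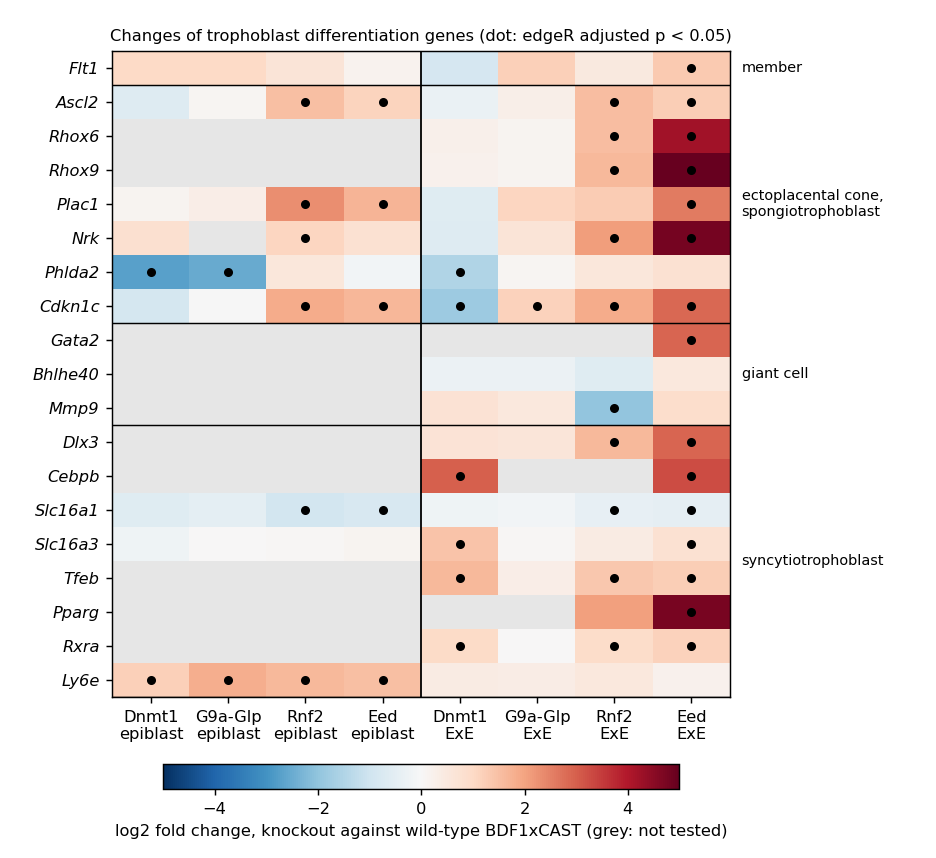
Log2 differences of Flt1 and the tested genes of the 3 differentiation lists (rows) in the 8 comparisons of a knockout with wild-type BDF1xCAST (columns); colour gives the edgeR log2 difference on a scale from -5 to 5, a dot marks an adjusted p below 0.05, and grey cells were not tested. The Eed ExE column holds the strongest colour, with Rhox9 at 5.06.

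Of 9 tested trophoblast stem cell genes 4 fell, 0 rose and 5 did not pass in Eed ExE, where 18.1% of all genes fell. Eomes, a T-box factor that keeps trophoblast stem cells, went from 115.4 ± 27.55 to 34.66 ± 19.72 CPM (log2 difference -1.93, SE 0.26, adjusted p = 8.455e-06 by edgeR). Fgfr2, the receptor of the FGF signal that maintains these cells, fell by 1.19 and the nuclear receptor gene Esrrb fell by 1.18 on the log2 scale (adjusted p 5.026e-05 and 0.01764 by edgeR). The visceral endoderm sum was higher in Eed ExE (38.02 to 75.11 CPM) than in wild-type ExE (12.18 to 27.51), with 7 of 7 genes read in both. The decidual sum was 0 to 0.687 CPM in wild-type ExE and 24.18 to 98.48 in Eed ExE, of which Wnt4 made 48.78 ± 25.75 CPM on average (SD, n = 10) and Dcn was at 0. The part of these tissues in the changes was not tested.

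In Rnf2 ExE, of 16 tested differentiation list genes 8 rose and 2 fell (median log2 difference 1.30), beside 12.2% higher and 9.99% lower of all genes. Without the 3 libraries whose label the targeted gene does not bear out, Rnf2 embryos 4 and 7 alone were left. With these, 5 of these 10 calls held (Cdkn1c, Rhox6, Rhox9, Tfeb and Mmp9) and 1 other gene passed. The calls of Nrk, Ascl2, Dlx3, Rxra and Slc16a1 were lost there (adjusted p 0.08337, 0.07237, 0.1269, 0.1361 and 0.3257 by edgeR), as were those of the stem cell genes Eomes and Fgfr2 (0.137 and 0.248). With all 5 libraries, Nrk rose by 2.10, Cdkn1c by 1.84 and Rhox9 by 1.62 on the log2 scale (adjusted p 0.01133, 1.334e-05 and 0.0002286 by edgeR, and 0.063 for Nrk with all libraries of the tissue in 1 fit), with Tfeb (1.33) and Rxra (0.93) among the syncytiotrophoblast genes. Dlx3 rose by 1.62, with an edgeR adjusted p of 0.03665 that became 0.05898 to 0.1377 without wild-type embryo 2, 3 or 4 or Rnf2 embryo 4 or 6. The protease gene Mmp9 fell by 1.96 (adjusted p 0.01054 by edgeR), and Slc16a1 by 0.40 (0.03629, and 0.05061 to 0.09409 without any one of the 5 Rnf2 libraries or of wild-type embryos 3, 7 and 8). Among stem cell genes Eomes fell by 0.82 and Fgfr2 by 0.68 (adjusted p 0.03806 and 0.02112 by edgeR). The Eomes call was lost without wild-type embryo 4, 6 or 8 or Rnf2 embryo 2 or 4 (0.05481 to 0.103), and the Fgfr2 call without Rnf2 embryo 2, 4 or 5 (0.05026 to 0.06404). Compared directly in ExE, 6 of 18 genes were higher in Eed than in Rnf2 (Rhox9, Mmp9, Pparg, Nrk, Rhox6 and Dlx3) and 0 lower, where 14.5% of all genes were called in either direction. Against wild type, 16 were tested for Rnf2, so genes high in Eed could enter here through the Eed libraries. This count leans towards Eed as well. Pgf was also higher in Eed than in Rnf2, by 1.56 on the log2 scale (adjusted p = 0.04294 by edgeR). The decidual marker sum was 11.91 to 20.85 CPM in Rnf2 ExE and 0 to 0.687 in wild type, with 3 and 1 of 5 genes read and Prl8a2 and Dcn at 0 in both. The visceral endoderm sum was 22.31 to 48.87 CPM against 12.18 to 27.51, with 7 of 7 read, and the part of these tissues in the Rnf2 values was not tested.

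**Figure D4:**
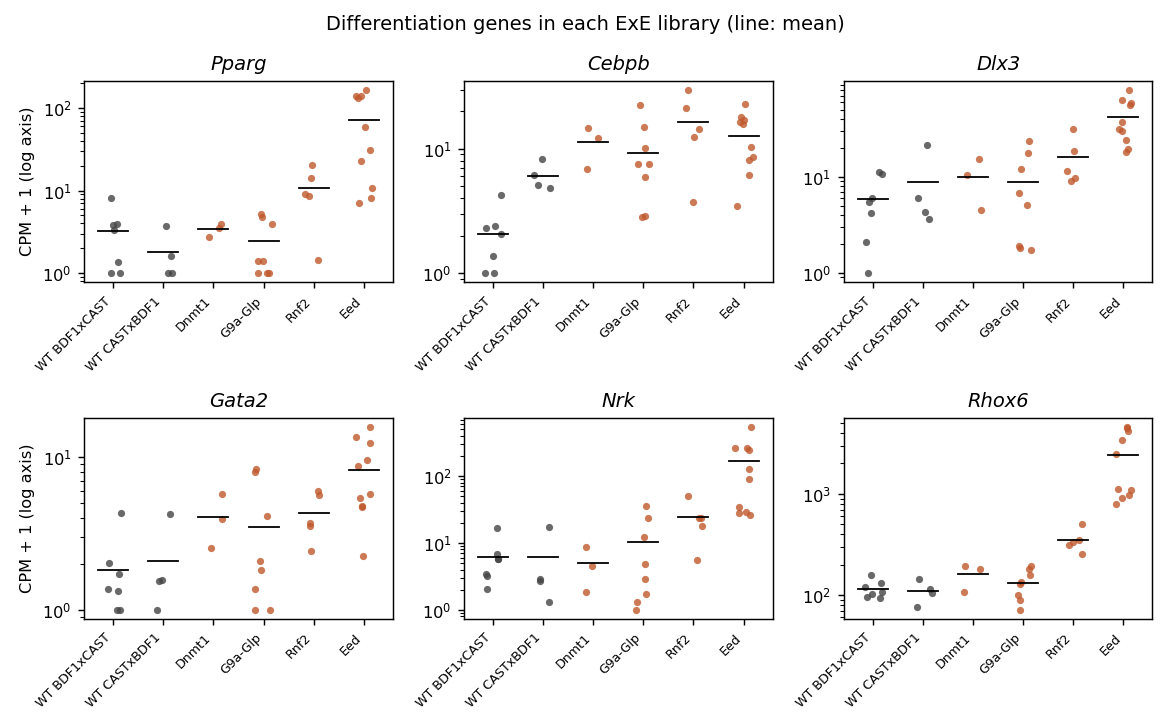
Levels of 6 differentiation genes (panels; y axis CPM + 1, log scale) in each ExE library (points) by group (x axis), with a line at the mean. Rhox6 in Eed ExE runs from 796.9 to 4595 CPM, while Cebpb overlaps between the knockouts.

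In Dnmt1 ExE 4 of 16 tested differentiation genes rose and 2 fell, beside 8.54% higher and 9.96% lower of all genes, so the count that fell is near the share of all genes. The 4 that rose were from the syncytiotrophoblast list: Cebpb (log2 difference 2.99, adjusted p = 0.006832 by edgeR; 10.27 ± 4.042 CPM, SD, n = 3), Tfeb (1.62, 0.003494), Slc16a3 (1.44, 0.006246) and Rxra (0.95, 0.02125). The Slc16a3 count (10738 reads over all libraries) may include reads of the overlapping Csnk1d (18191 reads). Cdkn1c and Phlda2, both on the ectoplacental list and on chromosome 7, fell by 1.80 and 1.51 on the log2 scale (adjusted p 0.005391 and 0.01686 by edgeR). Without Dnmt1 embryo 3, 1 of these 6 calls was left, and without embryo 2 those of Rxra and Phlda2 were lost too (0.08883 and 0.07353). Rxra also lost its call without embryo 1 (0.08186). The stem cell gene Tead4 rose by 1.17 (adjusted p 0.03796 by edgeR, and 0.05101 to 0.2061 without wild-type embryo 2, 3 or 7 or Dnmt1 embryo 2 or 3). In G9a-Glp ExE 1 of 15 tested genes was called, a smaller share than the 15.2% of all genes: Cdkn1c rose by 1.16 (adjusted p = 0.009037 by edgeR). The stem cell gene Fgfr2 fell by 0.56 (0.03956, and 0.05358 to 0.09091 without wild-type embryo 3, 6 or 8 or G9a-Glp embryo 1, 2, 3, 4, 7 or 8). Against G9a-Glp, Eed ExE was higher in 9 of 18 genes and lower in 0, where 31% of all genes were called in either direction. Pparg led (5.68 on the log2 scale, adjusted p = 1.601e-05 by edgeR). Genes low in G9a-Glp ExE, such as Pparg (0 to 4.169 CPM), could enter this test through the Eed libraries. The count therefore leans towards Eed. The endothelium and blood sum was 113.4 to 220.3 CPM in Dnmt1 ExE (4 of 5 genes read, Tal1 at 0) against 25.01 to 107.4 in wild type. In G9a-Glp ExE the visceral endoderm sum was 20.32 to 138.3 CPM against 12.18 to 27.51, and the part of either in these values was not tested.

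In epiblast most of these genes had too few reads, and 7 or 8 of 28 were tested. Ly6e, the receptor of syncytin-A, rose in all 4 knockouts against their shared controls: from 310.1 ± 105.7 CPM in wild type (SD, n = 7) to 820.3 ± 243.2 in Dnmt1 (n = 3), 1176 ± 195.1 in G9a-Glp (n = 6), 992.9 ± 248 in Rnf2 (n = 6) and 997.9 ± 159.5 in Eed (n = 9). The adjusted p values by edgeR were 0.02294, 1.503e-05, 0.0001971 and 1.377e-05, and that of Dnmt1 became 0.05671 without its embryo 1 and 0.1634 without its embryo 3. The effect on Ly6e in ExE minus that in epiblast was -1.26 for Eed (SE 0.28, edgeR adjusted p = 0.001964) and -1.43 for G9a-Glp (SE 0.32, 0.005494) on the log2 scale. For Rnf2 it was -1.10 (SE 0.37, 0.07273) and for Dnmt1 -0.71 (SE 0.43, 0.66), which did not pass. Plac1, Cdkn1c and Ascl2 rose in both Polycomb knockouts, by 2.32, 1.87 and 1.52 in Rnf2 and by 1.69, 1.65 and 1.12 in Eed on the log2 scale. The Ascl2 call was lost in Rnf2 without wild-type embryo 4, 6 or 7 or Rnf2 embryo 6 or 8 (edgeR adjusted p 0.05245 to 0.1252), and in Eed without wild-type embryo 6 or Eed embryo 8 (0.05264 and 0.05332). Phlda2 fell in Dnmt1 epiblast (-2.73, adjusted p = 0.0145 by edgeR, and 0.05671 and 0.08106 without its embryo 1 or 3) and in G9a-Glp epiblast (-2.53, adjusted p = 0.001586). Pgf rose in Rnf2 epiblast by 2.05 (adjusted p 0.005923 by edgeR). In wild type, 6 of 6 tested ectoplacental genes were higher in ExE than in epiblast, against 27.9% of all genes, led by Plac1, Rhox9 and Rhox6 (6.36, 6.33 and 6.16 on the log2 scale, adjusted p 1.117e-05, 3.059e-08 and 7e-09 by edgeR). Of the syncytiotrophoblast list Rxra was (3.09), while the Hand1 partners Tcf4 and Tcf12 were lower (-3.77 and -2.21).

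Eed knockout ExE embryos were not alike, and the members followed different embryos. The 3 with the highest Flt1 (embryos 1, 2 and 9) had the lowest Pparg (9.835, 6.141 and 7.076 CPM) and low Nrk (24.77, 27.4 and 27.91 CPM). The 3 with Syna reads at 10 or more (embryos 3, 4 and 5) had Pparg at 132.5, 138.2 and 140.0 CPM and Nrk at 266.9, 545.8 and 263.2 CPM. Embryo 6 had the highest Pparg (164.5 CPM) with 0 Syna reads and 3.126 CPM of Flt1. By the labels, embryos 1, 2, 6, 7, 9 and 10 were male and 3, 4, 5 and 8 female, so the 3 with the highest Flt1 were male and the 3 with the most Syna female. Flt1 was 14.8 ± 11.39 CPM in the 6 males and 6.79 ± 2.995 in the 4 females of Eed ExE, and 3.426 ± 2.418 in 4 male and 4.832 ± 0.4678 in 3 female wild-type embryos. Rhox6, which is X-linked like Rhox9, Nrk and Plac1, was 3387 to 4595 CPM in female and 796.9 to 2506 CPM in male Eed ExE. The part of sex and of embryo stage in these differences was not tested, and the embryos were described after their values were seen.

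**Figure D5:**
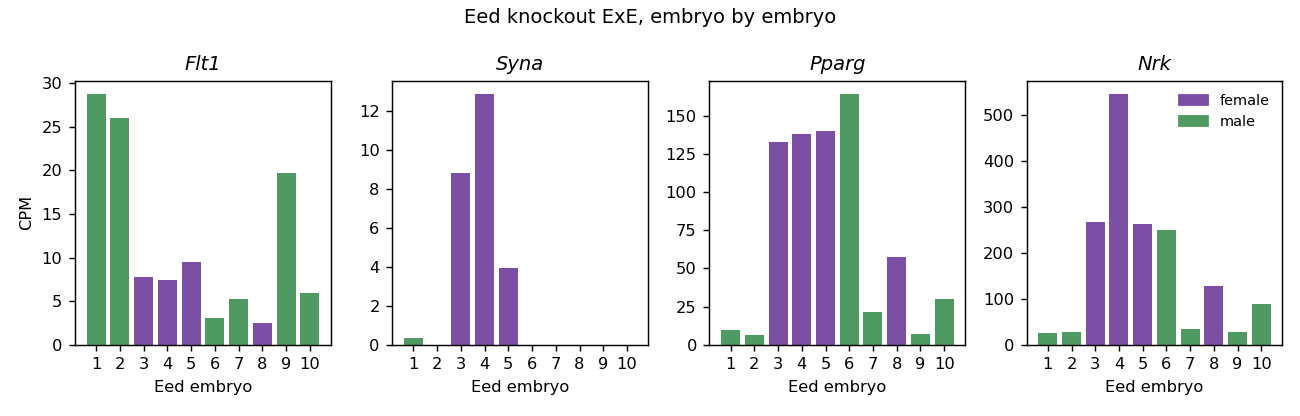
Flt1, Syna, Pparg and Nrk (panels; y axis CPM from 0) in each Eed knockout ExE embryo (bars; 1 library each), coloured by labelled sex (female purple, male green). Flt1 is highest in embryos 1, 2 and 9, where Pparg and Nrk are lowest, and Syna is highest in embryo 4.

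Over the 37 ExE libraries, the genes whose CPM followed Flt1 most closely among 8972 genes with a mean of at least 5 CPM were Zfp36 (Spearman's rho 0.68), Gm32092 (0.678) and Gna15 (0.678). The libraries share controls, depth and knockout groups, so these values are a description of likeness over pooled groups. No other member held enough reads for this ranking.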

How the data were processed

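The authors deposited 1 table with 3 values per gene and library. Per the file headers, the deposited counts are reads over polymorphic positions per RefSeq gene, on mm10 coordinates and without normalization. The deposited allelic ratio, per the file headers, runs from BDF1 alone to CAST alone, and the deposited allelic score is the -log10 of a binomial p-value, which in the values carries a sign for the allele. The submitters' processing notes name STAR 2.5.0 and HTSeq with no role; strand use was not given in the sources used here. SMART-Seq v4 cDNA and Nextera XT libraries were sequenced in pairs, per the labels' protocols. A bisulfite sample was not analysed here.

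Members were rows with exactly the given symbol. The members and gene lists were chosen with earlier results of these data known. CPM was the count over the library total. Totals were tested with edgeR 4.0.16 (R 4.3.3): quasi-likelihood test, TMM scaling, filterByExpr, on all genes, with Benjamini-Hochberg adjustment over all genes tested and a two-sided threshold of 0.05. DESeq2 1.42.0 was an alternative. Allele counts were the whole numbers that fitted ratio and score (99.986% of 712130 scored values), and 3519 values above a score of 300 took the ratio alone. Allelic fits had a term per library and needed 10 reads in 3 libraries of each group. The fits were tested on simulated data. Single members outside the filter had an exact permutation test (scipy 1.17.1). From each list, up to 3 called genes per direction and comparison were named by size of change, or else the gene with the highest mean CPM; other genes are said to be chosen after their values were seen.

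Libraries were grouped by the genotype, cross and tissue labels, and the embryo by its label. For some Eed libraries the number in the title disagrees with that label. Each library is a tissue of 1 embryo, so p-values measure the spread between embryos. Epiblast and ExE of the same number come from the same embryo by the labels (deviations correlated at 0.0293 to 0.41 over 7 wild-type pairs). Between knockout and wild type a number is only a number (-0.356 to 0.344). Removing the Gm35383 reads from Flt1, and leaving out single libraries in the permutation tests, were added after the data were seen. Other alternatives were no filter, sex as a term, a shared fit, the replicate block, and leaving out single libraries or those whose label the targeted gene did not bear out.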

Additional observations from a re-analysis of the deposited data

Results flagged for a closer look

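Of the 12 groups examined for members with a sample far from the rest, 2 results stood out, and chance alone gives about 1 in 20 groups. That rate does not hold for a member at 0 in all other libraries of its group, as Prl3d1 was, since any read then stands out. Prl3d1 in Eed knockout epiblast embryo 5 was 5.054 CPM, while the other 8 libraries of its group were at 0. Flt1 in wild-type BDF1xCAST epiblast embryo 8 was 12.96 CPM, while the next highest library was at 5.538. Of its 17 Flt1 reads, 9 were shared with Gm35383. Without the shared reads embryo 8 was at 6.098 CPM and embryo 1 at 4.637, so most of its distance from the group lay in them. Embryo 8 also held the most Syna reads in wild-type epiblast and the highest visceral endoderm marker sum of its group, 449.7 CPM.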

How the results depend on the processing

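The count of members called in Eed ExE (1) was 0 with sex as a term and with the replicate block, 2 with no filter on low counts and with all libraries of the tissue in 1 fit, and 0 to 1 without single libraries. Flt1 had an adjusted p of 0.0132 to 0.1425 there, with 0.1425 under the block. In G9a-Glp ExE the count (0) was 1 with DESeq2, with no filter and with sex, and 0 to 1 without single libraries. In G9a-Glp epiblast it was 1 with the block and 0 to 1 without single libraries. With no filter, the effect of tissue on the knockouts gave 1 member call and the Eed pairs gave 3, and the pairs gave 2 with all libraries in 1 fit. The differentiation list count in epiblast became 1 under the block for Dnmt1 (from 2), 11 with no filter for Rnf2 (from 6) and 10 with no filter for Eed (from 5). In ExE it became 2 for G9a-Glp (from 1) with no filter and with a shared fit. For Rnf2 (from 10) it became 5 under the block and 6, of which 5 are among the 10, without libraries whose label the targeted gene does not bear out. Between wild-type tissues (from 7) it was 13 with no filter and 14 with both tissues in 1 fit. Without single libraries it ranged over 0 to 2 (Dnmt1) and 4 to 7 (Rnf2) in epiblast, and over 1 to 6 (Dnmt1), 1 to 2 (G9a-Glp) and 8 to 10 (Rnf2) in ExE. Flt1 changed sign in comparisons where it was not called. In Eed epiblast it was -0.019 without wild-type embryo 3 and -0.055 without Eed embryo 10 (single libraries -0.055 to 0.60). In the epiblast crosses it was 0.036 without BDF1xCAST embryo 8 (-0.66 to 0.036). Between wild-type tissues it was -0.0046 with DESeq2, -0.15, -0.20, -0.11 and -0.011 without epiblast embryo 2, 3, 4 or 7, and -0.12 and -0.094 without ExE embryo 2 or 8 (-0.20 to 0.42). For Eed against G9a-Glp it was -0.12 with sex. The cause of these changes was not tested. Numbers do not pair knockout with wild-type embryos, and in no comparison did every sample correlate best with its own number. The embryo block between wild-type tissues, where pairing is by label, changed no member call. Flt1 reached at most 85 reads in a library, which limits its precision. For the other 5 members low depth, few polymorphic positions and low expression cannot be told apart.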
